A study of Mus musculus with 25 samples.

Results

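The genes described here are 10 regulators of the eye field and the anterior hypothalamus, namely the homeobox genes Rax, Six3, Six6, Vax1, Vax2, Pax6, Hmx2 and Hmx3 and the zinc-finger genes Fezf1 and Fezf2. They were chosen by name, with earlier results of these data known. Each was represented by the brightest transcript cluster (the set of probes that stands for a gene) annotated with its symbol alone. All 10 were found, each with exactly 1 such cluster, among 18820 named genes. Expression was measured with Affymetrix Mouse Gene 1.1 ST arrays in the mammillary neuroepithelium, the part of the caudal hypothalamic wall that later gives rise to the mammillary body, dissected from C57BL/6 embryos at E10.5. The 25 arrays came from 13 Lhx5 mutant embryos (labelled KO) and 12 wild-type embryos (labelled WT), called biological replicates in the labels. Both copies of Lhx5, a LIM-homeobox gene of the caudal hypothalamus, carried loxP sites around several exons in the mutants. The allele had not been recombined by Cre, and the study treated it as a hypomorph of the whole embryo that lacked detectable protein. Levels are log2 values after robust multiarray averaging (RMA), and a difference is mutant minus wild type on that scale.

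Rax, Six3, Six6 and Pax6 belong to the group of transcription factors that set up the eye field in the anterior neural plate, from which the retina, the optic stalk and much of the hypothalamus arise. Six3 represses Wnt genes at the front of the neural plate and so keeps that tissue anterior, and the Vax genes act ventrally, in the optic stalk and the hypothalamus. Fezf1 and Fezf2 are repressors of the rostral forebrain that limit more caudal fates. The mammillary region lies at the caudal end of the hypothalamus, next to territories where several of these genes are active.

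All 10 genes stood lower in the mutants in the fit described below, although the sign for Hmx2 and Hmx3 was not stable when single arrays were left out. The differences for 6 genes, Rax, Six3, Fezf1, Six6, Vax1 and Pax6, were larger than 1.5-fold, a size reached downward by 0.356% of all 28940 clusters. None passed the test across all clusters (limma, adjusted p below 0.05), at which 0.0242% of clusters were called. At an unadjusted p below 0.05, 4 of the 10 were lower (Rax, Six3, Vax1 and Fezf1), against 4.15% of all clusters. All 4 are also on the study's own list of lower genes from these arrays. Since the genes were chosen with earlier results known, the shares of all clusters given here and below do not measure an enrichment. The median difference was -0.76 over the 10 genes and 0.01 over all clusters, and 48.2% of all clusters stood lower. In tissue samples such as these, fewer cells expressing a gene and less RNA of it per cell cannot be told apart.

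The arrays behind these values were uneven. The mean of mutant replicates 1 to 10 equalled that of mutant replicates 11 to 13 across probe sets, with a median absolute difference of 1.33e-06, whereas the lowest median for any other split of the mutant arrays into 3 and 10 was 0.0491. Among the arrays with high Xist (above 8), its mean was 9.52 in mutant replicates 11 to 13 (n = 2) and 12.4 in mutant replicates 1 to 10 (n = 3), against 9.71 in wild type (n = 8). The mutant level therefore rests on replicates 11 to 13, and the fit carried a term for replicates 1 to 10, whose values are shown only for their spread. Lhx5 itself averaged 7.93 in the mutants and 7.97 in wild type, which does not bear on the protein. Wild-type replicate 10 also stood apart, since all 8 measured markers of the midbrain and floor plate were highest there among the wild-type arrays, with En2 at 8.16 against at most 5.71 and Pax5 at 7.76 against at most 5.21 in the others. It was the lowest wild-type array for 6 of the 10 genes, and wild-type replicate 12 was the lowest for 3 others. Without replicate 10, still 0 of the 10 genes passed the adjusted test and 5 had an unadjusted p below 0.05. With an unadjusted p below 0.05 there were 2 without mutant replicate 12 and 2 without mutant replicate 13.

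**Figure D1:**
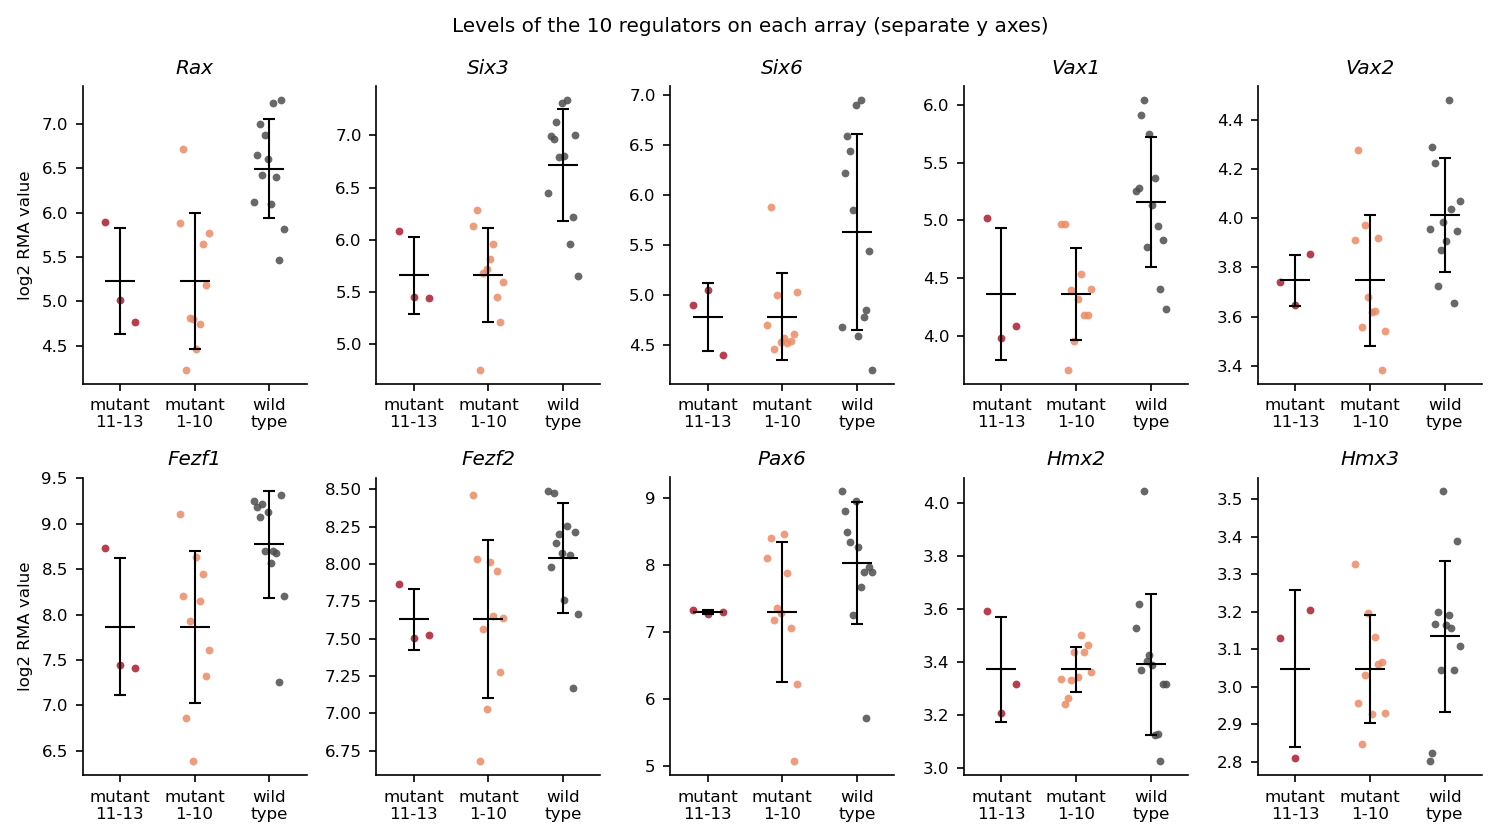
Log2 RMA values of the 10 genes on each array, with mutant replicates 11 to 13 and mutant replicates 1 to 10 left of the 12 wild-type arrays. Each point is 1 array and the bars are means with SD, with equal means in both mutant sets. No gene had all of mutant replicates 11 to 13 below all wild-type arrays, and the y axes differ between genes.

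Rax, a homeobox gene without which eyes do not form in the mouse and which marks progenitors of the ventral hypothalamus, showed the largest difference of the 10. Its values were 5.90, 5.01 and 4.76 in mutant replicates 11, 12 and 13, and ranged from 4.22 to 6.72 around a median of 5.001 in mutant replicates 1 to 10, against 5.47 to 7.28 around a median of 6.52 in wild type. Replicates 12 and 13 lay below every wild-type array, and 10 of the 12 wild-type arrays lay above all 3 of these mutants. The difference was -1.27 ± 0.39 (SE, 95% interval -2.08 to -0.46), or 2.41-fold lower in the mutants, with an adjusted p of 0.242 from limma. A two-sided exact permutation test over all 455 splits into 3 and 12 arrays gave p = 0.00659, where the smallest possible value is 0.0022. With mutant replicate 11, the highest of the 3, left out, the difference was -1.61, and without wild-type replicate 10 it was -1.36. The gene lies on chromosome 18 (65934639 to 65939089, GRCm38.p6).

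Six3, a repressor of Wnt genes needed for forebrain formation, had the smallest p of the 10. Levels were 6.09, 5.45 and 5.44 in mutant replicates 11, 12 and 13 and 4.75 to 6.29 (median 5.70) in replicates 1 to 10, against 5.65 to 7.34 (median 6.88) in wild type. Of the 12 wild-type arrays, 10 lay above all of mutant replicates 11 to 13, while wild-type replicates 9 and 12 lay between mutant replicates 12 and 11. The difference of -1.06 ± 0.29 (95% interval -1.66 to -0.45) corresponds to a 2.08-fold lower level, with an adjusted p of 0.179 from limma and an exact permutation p of 0.00659.

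Six6, a relative of Six3 that drives growth of the retina and the pituitary, spread far more widely between wild-type embryos. Mutant replicates 11, 12 and 13 had 4.90, 5.05 and 4.40, and replicates 1 to 10 ran from 4.46 to 5.88 with a median of 4.60, against 4.25 to 6.95 with a median of 5.64 in wild type. In wild type, 7 arrays lay above all of mutant replicates 11 to 13, whereas the other 5 lay among or below them. The wild-type SD of 0.98 was larger than that of 99.8% of clusters. The difference of -0.84 ± 0.45 had an interval that included 0 (-1.77 to 0.08), with an adjusted p of 0.532 from limma and an exact permutation p of 0.185.

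Vax1, which patterns the optic stalk and the ventral forebrain, had 5.02, 3.98 and 4.08 in mutant replicates 11, 12 and 13 and 3.70 to 4.97 (median 4.36) in replicates 1 to 10, against 4.23 to 6.05 (median 5.20) in wild type. Replicates 12 and 13 lay below all wild-type arrays, but replicate 11 lay within them, close to the wild-type mean of 5.16. The difference was -0.80 ± 0.30 (95% interval -1.42 to -0.18), 1.74-fold lower in the mutants, with an adjusted p of 0.331 from limma and an exact permutation p of 0.0484. Leaving out replicate 11 gave -1.13. Vax2, which marks the ventral retina, was dim, below the median of its own array on all 25 arrays. It had 3.74, 3.65 and 3.85 in mutant replicates 11, 12 and 13 and 3.38 to 4.28 (median 3.65) in replicates 1 to 10, against 3.66 to 4.48 (median 3.97) in wild type, a difference of -0.26 ± 0.15 (95% interval -0.56 to 0.04, adjusted p = 0.553 in limma).

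Fezf1, a repressor active in the early forebrain and the hypothalamus, had 8.74, 7.45 and 7.41 in mutant replicates 11, 12 and 13 and 6.38 to 9.11 (median 8.04) in replicates 1 to 10, against 7.26 to 9.32 (median 8.89) in wild type. Replicate 11 was close to the wild-type mean of 8.77, and the other two lay below every wild-type array except replicate 10. The difference was -0.91 ± 0.43 (95% interval -1.79 to -0.03), or 1.88-fold, with an adjusted p of 0.464 from limma and an exact permutation p of 0.0418. It was -1.05 without wild-type replicate 10 and -1.34 without mutant replicate 11. Fezf2, its close relative and later a determinant of deep-layer cortical neurons, had 7.87, 7.50 and 7.52 in mutant replicates 11, 12 and 13 and 6.68 to 8.46 (median 7.65) in replicates 1 to 10, against 7.17 to 8.49 (median 8.11) in wild type. In wild type, 9 arrays lay above all 3 of these mutants, and the difference was -0.41 ± 0.26 (95% interval -0.94 to 0.12, adjusted p = 0.617 in limma).

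Pax6, needed for the eye and for the boundary between forebrain and midbrain, was nearly level in mutant replicates 11, 12 and 13, at 7.33, 7.28 and 7.30, but ran from 5.07 to 8.46 (median 7.32) in mutant replicates 1 to 10. Wild-type arrays spanned 5.72 to 9.10 around a median of 8.12, and the lowest was replicate 10. Of these, 10 lay above mutant replicates 11 to 13. The difference of -0.73 ± 0.55 (95% interval -1.87 to 0.41) had an adjusted p of 0.696 from limma and an exact permutation p of 0.196, and the SD within wild type, 0.907, was larger than that of 99.7% of clusters.

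Hmx2 and Hmx3, neighbouring homeobox genes of the inner ear and the hypothalamus, were dim and lay below the array median on all 25 arrays. Hmx2 had 3.59, 3.21 and 3.32 in mutant replicates 11, 12 and 13 and 3.24 to 3.50 (median 3.35) in replicates 1 to 10, against 3.03 to 4.04 (median 3.38) in wild type. Hmx3 had 3.13, 2.81 and 3.20 in mutant replicates 11, 12 and 13 and 2.85 to 3.33 (median 3.05) in replicates 1 to 10, against 2.80 to 3.52 (median 3.16) in wild type. The mutant values lay inside the wild-type range for both. The differences were -0.02 ± 0.13 (95% interval -0.28 to 0.24) for Hmx2 and -0.09 ± 0.11 (95% interval -0.32 to 0.15) for Hmx3. At levels this low on the array a change in RNA may not show in the values, so these intervals set no limit on it.

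**Figure D2:**
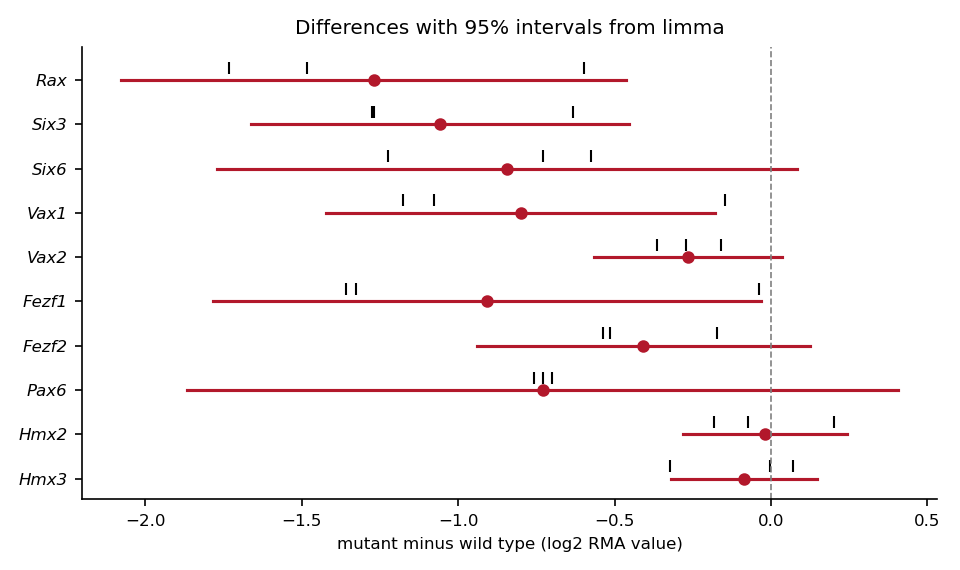
Difference between mutant and wild type for each gene on the log2 scale (points) with its 95% interval from limma (lines), and the 3 mutant replicates 11 to 13 minus the wild-type mean (ticks). The intervals of Rax, Six3, Vax1 and Fezf1 lie below 0, and those of Hmx2 and Hmx3 are the narrowest of the 10.

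The exact test gave p below 0.05 for 4 of the 10 genes, in each case with the mutants lower, and for 4.51% of the 28930 clusters with complete values in that direction. All 3 of mutant replicates 11 to 13 lay below all wild-type arrays for 0 of the 10 genes and for 0.619% of clusters. With genotype as the only term, which counts the adjusted replicates 1 to 10 as independent, 6 of the 10 genes passed an adjusted p below 0.05 in limma, all lower (Rax, Six3, Six6, Vax1, Vax2 and Fezf1), against 6.99% of clusters.

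Windows before an annotated start are shown for Six3, Vax1, Fezf1 and Fezf2, the genes of the correlated pairs that passed within mutant replicates 1 to 10, as described next. Not every pair among them passed. Six6 and Pax6, which were in pairs that passed in wild type, are described without their sequences. RefSeq promoter windows on GRCm38.p6 were at hand for 8 of the 10 genes (10 windows), and the 250 bases before the start that the RefSeq window uses are printed 5′ to 3′ on the gene's strand. The windows of Six3, Fezf1 and Fezf2 lie inside the annotated span of the gene, so their starts are internal to it, whereas that of Vax1 lies just outside. Capitals mark ATTA and its reverse complement TAAT, the core bound by many homeodomain proteins, searched on both strands. Of 32851 windows of this length 54.9% hold the core, and 17.3% hold 3 or more. The window of Six3 (chr17:85620584-85620833, plus strand) has 3 matches and that of Vax1 (chr19:59170398-59170647, minus strand) has 4. Those of Fezf1 (chr6:23248265-23248514, minus strand) and Fezf2 (chr14:12345866-12346115, minus strand) have 1 each.
Six3: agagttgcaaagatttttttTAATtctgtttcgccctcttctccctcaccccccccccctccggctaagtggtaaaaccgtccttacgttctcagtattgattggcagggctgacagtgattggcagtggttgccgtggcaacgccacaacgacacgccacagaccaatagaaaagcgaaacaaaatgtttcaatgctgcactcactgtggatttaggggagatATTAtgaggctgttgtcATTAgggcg
Vax1: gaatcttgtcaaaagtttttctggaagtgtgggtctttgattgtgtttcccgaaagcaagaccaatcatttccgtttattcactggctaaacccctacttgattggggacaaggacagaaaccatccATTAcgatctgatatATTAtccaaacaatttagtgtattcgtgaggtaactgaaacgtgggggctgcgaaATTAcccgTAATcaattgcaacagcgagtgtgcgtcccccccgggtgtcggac
Fezf1: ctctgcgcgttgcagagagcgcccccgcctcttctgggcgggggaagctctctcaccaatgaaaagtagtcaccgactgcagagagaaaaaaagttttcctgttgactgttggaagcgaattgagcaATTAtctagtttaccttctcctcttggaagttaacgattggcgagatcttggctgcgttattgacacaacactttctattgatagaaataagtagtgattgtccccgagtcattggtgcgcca
Fezf2: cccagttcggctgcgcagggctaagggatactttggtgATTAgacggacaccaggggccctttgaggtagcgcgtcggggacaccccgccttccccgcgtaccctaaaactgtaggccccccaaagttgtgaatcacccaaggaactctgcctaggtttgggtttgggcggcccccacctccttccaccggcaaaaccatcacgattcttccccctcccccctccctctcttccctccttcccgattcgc
The longer palindrome TAATTA, which contains the core on both strands, occurs in 4.84% of windows and in none of the 10. Both windows of Pax6 hold the core at 2 positions, and those of Six6, Hmx2 and Hmx3 do not hold it.

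How the genes vary among embryos of a single genotype was asked with correlations over the 10 mutant replicates 1 to 10 and, separately, the 12 wild-type arrays. All 45 pairs were tested in each set by permutation and adjusted within the set. Most pairs were positive, 36 in the mutants and 42 in wild type, with a median Pearson r of 0.46 in the mutants and 0.43 in wild type. Leaving aside the pairs with the dim Hmx2 and Hmx3, the medians over 28 pairs were 0.61 in the mutants and 0.56 in wild type, and no pair was negative. At an unadjusted permutation p below 0.05 there were 10 pairs in the mutants and 14 in wild type, and 3 pairs in each set passed after adjustment. How often pairs of other genes reach such values was not examined, so these counts do not set the 10 genes apart.

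Fezf1 and Fezf2 were the only pair to pass in both sets. In mutant replicates 1 to 10 their Pearson r was 0.93 (permutation p = 0.00015, adjusted p = 0.00675) and Spearman's rho 0.94 (permutation p = 0.00021), and r was 0.94 without the 2 arrays farthest from the median of Fezf1. In wild type r was 0.86 (permutation p = 0.00143, adjusted p = 0.0322) and rho 0.69 (permutation p = 0.017), but without the 2 farthest arrays r was 0.43, and without replicate 10 it was 0.65. The wild-type relation thus rests partly on that array. Fezf1 also ran with Pax6 in wild type (r = 0.86, permutation p = 0.0024, adjusted p = 0.036; rho = 0.66, permutation p = 0.024), with r of 0.62 without the 2 farthest arrays and 0.59 without replicate 10.

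The other pairs that passed joined Six3, Six6, Vax1 and Fezf2. In wild type Six3 and Six6 had an r of 0.85 (permutation p = 0.00017, adjusted p = 0.00765) and a rho of 0.83 (permutation p = 0.00125), and r stayed at 0.84 both without the 2 farthest arrays and without replicate 10. In mutant replicates 1 to 10 the same pair had an r of 0.53 and did not pass. Six3 and Vax1 had an r of 0.87 (permutation p = 0.00145, adjusted p = 0.0326) and a rho of 0.79 (permutation p = 0.00855) in the mutants, and 0.70 without the 2 farthest arrays. In wild type their r was 0.73 (permutation p = 0.00756, adjusted p = 0.0567). Vax1 and Fezf2 passed in the mutants (r = 0.85, permutation p = 0.00233, adjusted p = 0.035; rho = 0.76, permutation p = 0.0149), with r of 0.78 without the 2 farthest arrays. Whether any of these correlations differed between mutants and wild type was not tested.

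**Figure D3:**
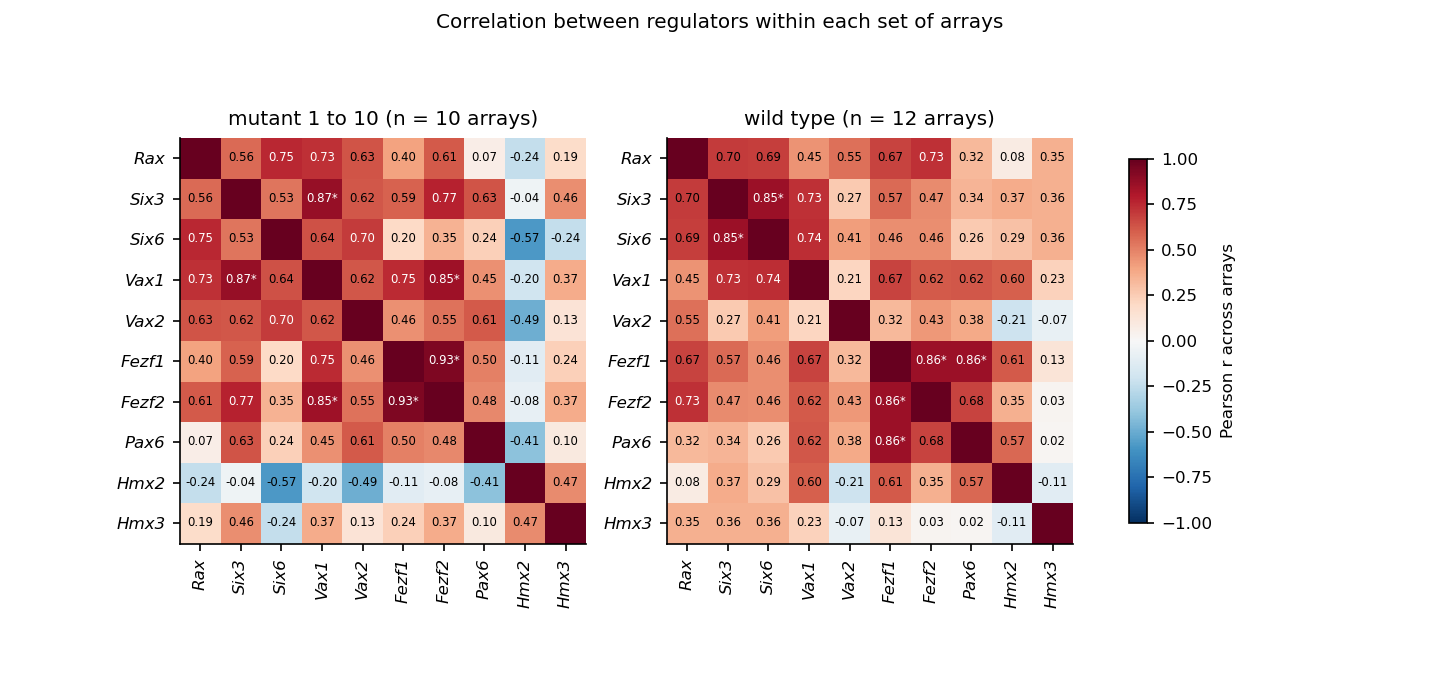
Pearson r between the log2 values of each pair of genes over mutant replicates 1 to 10 (left, n = 10) and wild-type arrays (right, n = 12), with red positive, blue negative and a star at an adjusted permutation p below 0.05. Fezf1 with Fezf2 carries a star in both panels, and all negative values lie in the rows and columns of Hmx2 and Hmx3.

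Marker genes of neighbouring tissues moved with some of the regulators within a genotype. The mean level of the 8 measured midbrain and floor plate markers (Foxa1, Foxa2, Corin, Ferd3l, Lmx1b, En1, En2 and Pax5) ran from 6.13 to 6.59 in mutant replicates 11 to 13 and 5.83 to 7.11 in replicates 1 to 10, against 5.38 to 7.72 in wild type, where replicate 10 was the highest. Across wild-type arrays it ran against Fezf1 (r = -0.94, permutation p = 0.0003, adjusted p = 0.0135; rho = -0.74, permutation p = 0.0077) and against Pax6 (r = -0.92, permutation p = 0.0003, adjusted p = 0.0135; rho = -0.87, permutation p = 0.0006). Without the 2 arrays of most extreme marker level r was -0.82 for Fezf1 and -0.74 for Pax6, and without replicate 10 it was -0.80 for Fezf1 and -0.77 for Pax6. In mutant replicates 1 to 10 the same relations had an r of -0.50 for Fezf1 and -0.66 for Pax6 and did not pass. Levels of the 8 measured telencephalon markers ran with Fezf1 in the mutants (r = 0.89, permutation p = 0.00025, adjusted p = 0.0135; rho = 0.90, permutation p = 0.0008) and in wild type (r = 0.82, permutation p = 0.0014, adjusted p = 0.036; rho = 0.65, permutation p = 0.0255), and r was 0.83 in the mutants and 0.59 in wild type without the 2 farthest arrays. They also ran with Fezf2 in the mutants (r = 0.87, adjusted permutation p = 0.0252) and Pax6 in wild type (r = 0.89, adjusted permutation p = 0.0135). With Fezf2 in wild type r was 0.66, and -0.03 without the 2 farthest arrays. With Pax6 in the mutants r was 0.57, and neither of these passed.

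The remaining pairs of a marker level and a regulator that passed were the optic markers with Vax1 in the mutants (r = 0.86, adjusted permutation p = 0.04; 0.61 without the 2 farthest arrays) and with Vax2 in wild type (r = 0.79, adjusted permutation p = 0.04), and the 6 hindbrain and spinal cord genes with Vax2 in the mutants (r = 0.85, adjusted permutation p = 0.036), all of low level. In the other set of arrays these did not pass. There r was 0.55 for the optic markers with Vax1, 0.77 for them with Vax2, and -0.18 for the 6 hindbrain and spinal cord genes with Vax2. None of those 6 had an unadjusted p below 0.05 between genotypes. In all 9 of 180 such relations passed an adjusted p below 0.05 by Pearson r. By Spearman's rho fewer passed, each at an adjusted permutation p of 0.048. These were the telencephalon markers with Fezf1 in the mutants, the midbrain and floor plate markers with Pax6 in wild type, and the hindbrain and spinal cord genes with Vax2 in the mutants. Between genotypes, 6 of the 8 midbrain and floor plate markers stood higher in the mutants (median difference 0.43), and Corin (0.98 ± 0.33), Ferd3l (0.92 ± 0.32), Foxa1 (0.47 ± 0.20) and Lmx1b (0.34 ± 0.13) had an unadjusted p below 0.05. En1 (-0.16 ± 0.35) and Pax5 (-0.15 ± 0.67) stood lower, and En2 was at 0.54 ± 0.73, so En1, En2 and Pax5 showed no clear difference. Wild-type replicate 10 weighs on these values, with En1 at 7.87 there against at most 6.50 in the other wild-type arrays, and En2 and Pax5 as given above. The differences of En1, En2 and Pax5 without that array were not computed. Of the 8 telencephalon markers 6 stood lower (median difference -0.51), led by Dlx1 (-1.69 ± 0.56), Dlx2 (-1.18 ± 0.43) and Gsx2 (-0.97 ± 0.37). The others, Emx1 (0.42 ± 0.21) and Neurod6, a marker of cortical neurons, stood higher. Neurod6 was 0.21 ± 0.07 higher at a level of 2.50 in the mutants and 2.29 in wild type. No marker of either list passed the adjusted test, and the part of these tissues in the differences of the regulators was not tested.

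**Figure D4:**
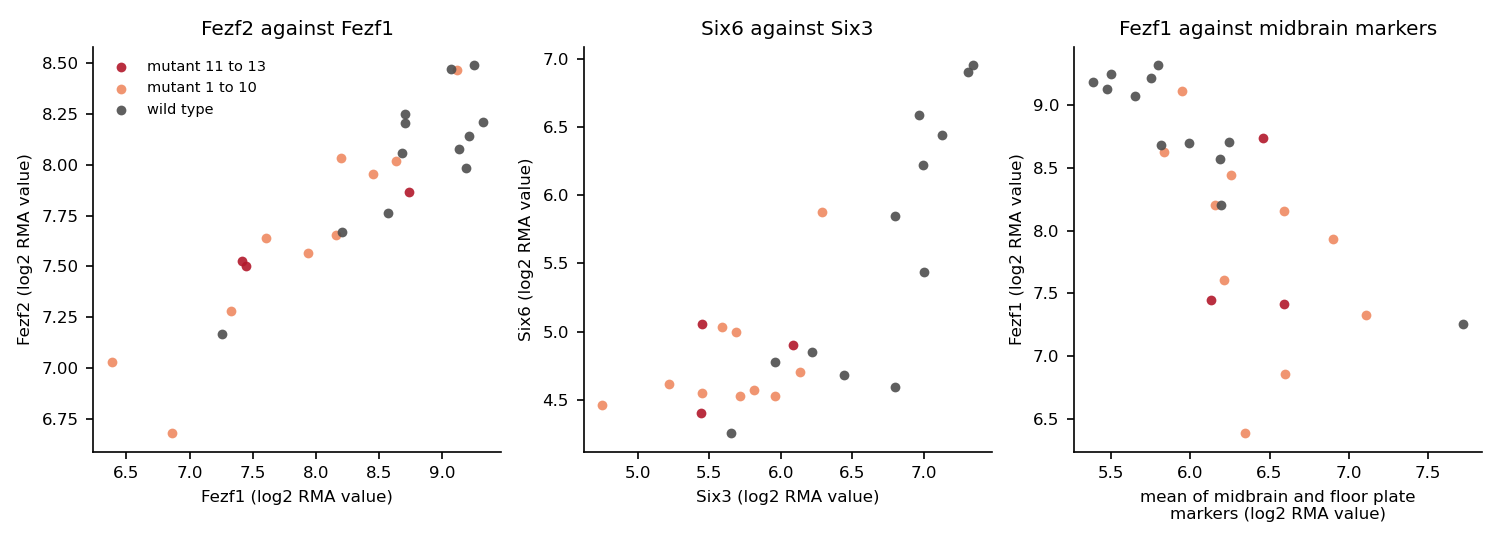
Log2 values of Fezf2 against Fezf1, of Six6 against Six3, and of Fezf1 against the mean of 8 midbrain and floor plate markers, with 1 point per array (mutant replicates 11 to 13 dark red, mutant replicates 1 to 10 orange, wild type grey). Fezf2 is higher where Fezf1 is higher, although in wild type r was 0.43 without the 2 arrays farthest from the median, the arrays with the highest Six6 also have high Six3, and wild-type replicate 10 lies alone at a marker level of 7.72 with a Fezf1 level of 7.26.

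The genes next to each regulator in the genome mostly did not share its difference. Of 19 neighbour pairs, an adjusted correlation was found for 2. Six3os1, annotated as a transcript that overlaps Six3 by 4.79 kb and reads the opposite strand, stood at -0.86 ± 0.28 (limma, adjusted p = 0.265), and correlated with Six3 in the mutants (r = 0.85, permutation p = 0.00117, adjusted p = 0.0148; rho = 0.82, permutation p = 0.00583) and in wild type (r = 0.91, permutation p = 6e-05, adjusted p = 0.00228; rho = 0.90, permutation p = 0.00012). Whether its probes separate it from Six3 was not tested. Shtn1, which encodes the axon growth protein shootin and lies 88.4 kb from Vax1, stood at -0.71 ± 0.29 (limma, adjusted p = 0.371) and ran with Vax1 in wild type (r = 0.89, permutation p = 0.00013, adjusted p = 0.00247; rho = 0.88, permutation p = 0.00023), also without the 2 farthest arrays (r = 0.87). In the mutants r was 0.73 (permutation p = 0.0157, adjusted p = 0.149; rho = 0.61, permutation p = 0.0652). By contrast Six2, 36.6 kb from Six3, had a difference of 0.03 ± 0.38, and Elp4, which overlaps the end of the Pax6 locus, -0.05 ± 0.06.

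Genes whose pattern was most like that of a regulator were ranked by Pearson r over all 25 arrays after the mean of each set had been removed, as a description without a test. For Rax these were Gpr50 (r = 0.82), Irf1 (0.81), Fzd8 (0.78), Lhx2 (0.76) and Tbx2 (0.76). Gpr50, a relative of the melatonin receptors known in the hypothalamus, had a difference of -1.79 ± 0.53. For Six3 the list was Six3os1 (0.88), Atp10a (0.79), Vax1 (0.79), Gabra3 (0.78) and Irs4 (0.77). Vax1 shared Irs4 (0.87) and Atp10a (0.84) with Six3 and added Shtn1 (0.84), Elf4 (0.83) and Ostm1 (0.79). Fezf1 and Fezf2 each ranked the other first of 18813 genes (r = 0.89), and Six3 had rank 3 for Six6 (0.74), while Rax and Pax6 were far apart, at r of 0.18.

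Other genes of the same network were examined from named lists. Of 18 measured regulators of the eye field, hypothalamus and anterior neural plate 16 stood lower in the mutants (median difference -0.35), 4 of them at an unadjusted p below 0.05 and none after adjustment. These were Nkx2-4, a homeobox gene of the hypothalamus (-0.72 ± 0.20, adjusted p = 0.179 in limma), Tbx3, a T-box repressor of the tuberal hypothalamus (-1.10 ± 0.41), Sox1, a marker of neural progenitors (-0.71 ± 0.32), and Lhx2, needed for the eye (-0.57 ± 0.25). Lhx2 is also counted among the telencephalon markers above. Of the 10 partners of Six3, Six6 and Fezf proteins, Eya4, a coactivator of the Six3 family (-0.53 ± 0.18), and the corepressor genes Dach2 (-0.43 ± 0.15) and Dach1 (-0.27 ± 0.12) stood lower at an unadjusted p below 0.05. The related genes Six4 (0.09 ± 0.16), Six5 (-0.21 ± 0.11) and Hmx1 (-0.23 ± 0.12), like Six2, had an unadjusted p above that.

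Secreted signals and possible targets were examined in the same way. Among 12 signals 7 stood lower (median difference -0.07), and only Bmp7, which patterns the ventral hypothalamus, had an unadjusted p below 0.05, and it was higher in the mutants (0.51 ± 0.17, adjusted p = 0.274 in limma). The fibroblast growth factor genes Fgf15 (-0.83 ± 0.51) and Fgf10 (-0.74 ± 0.44) stood lower by more than 1.5-fold, and Wnt1 stood at 0.57 ± 0.34. Of 9 genes described as lying downstream of the regulators, Gal, which encodes the neuropeptide galanin, rose to 5.42 in the mutants, against 4.14 in wild type (1.27 ± 0.22, adjusted p = 0.0285 in limma). This call did not hold in every setting. The adjusted p was 0.0774 without mutant replicate 12 and 0.28 without mutant replicate 13, 0.0597 in mutant replicates 11 to 13 and wild type only, and 0.0595 after a repeated quantile normalization, while the difference kept its sign in all 35 settings run. The other 8 did not pass. Of 9 mammillary markers 6 stood lower (median difference -0.09), among them Foxb2 (-1.13 ± 0.21, adjusted p = 0.0546 in limma), Otp (-1.28 ± 0.55) and Barhl1 (-0.79 ± 0.22). Sim1 (0.33 ± 0.21), Lhx1 (0.10 ± 0.45) and Uncx (0.07 ± 0.30) stood higher, and Sim2 (-0.09 ± 0.14) and Lhx5 (-0.04 ± 0.17) were close to 0. Foxb1, the defining gene of the mammillary body, averaged 6.57 in the mutants and 6.73 in wild type, against array medians of 4.64 to 4.76. The 8 optic and pigment cell markers had a median difference of -0.36, with Pmel lower (-1.30 ± 0.57) and Crx higher (0.26 ± 0.07) at an unadjusted p below 0.05. Of the markers of other tissues, 6 of 7 of the pituitary and surface ectoderm, 8 of 8 of the mesenchyme, 6 of 6 of the endothelium and 5 of 5 of erythroid cells stood higher in the mutants, with median differences of 0.15, 0.15, 0.12 and 0.27, and none had an unadjusted p below 0.05. The exception was the pituitary gene Lhx3, lower at -0.60 ± 0.30, with a mean of 3.46 in the mutants and 4.06 in wild type.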

How the data were processed

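Total RNA of 25 samples was hybridised to 1 array each. The values deposited by the authors are log2 signals from robust multiarray averaging (RMA), and their processing notes name Affymetrix Expression Console 1.0, affy and R 2.7.0. A step that equalised the means of mutant replicates 1 to 10 and 11 to 13 is not given in the sources used here. In 10 deposited columns, recorded as a score, stray cells far above the log2 range occurred, and 14 cells above 14 were set missing (0 in the 10 genes). Of 35556 probe sets, 6616 without annotation were left out.

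The fit of all 28940 clusters, in limma 3.58.1 under R 4.3.3, had genotype and a term for mutant replicates 1 to 10 as terms, with Benjamini-Hochberg adjustment over all clusters. The difference then equals mutant replicates 11 to 13 minus wild type. Exact tests took all splits into 3 and 12 arrays, and correlations 100000 permutations (scipy 1.17.1, Python 3.11.15). Arrays carry no read depth, so the number of arrays limits the precision. The fit was tested on simulated data. Replicate numbers were checked for pairing: deviations of same-numbered arrays correlated between -0.33 and 0.43, with 4 of 12 above 0.1, so they were not taken as pairs.

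The 10 genes and the lists were chosen with earlier results of these data known. Named genes were the 10, up to 4 genes of smallest p per list, any gene behind a count of 5 or fewer, the nearest genome neighbours, and the 5 most similar genes for Rax, Six3 and Vax1. Genes not annotated with a cluster of their own were not analysed here. En2, Pax5 and Foxb1 were singled out after their values were seen.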

Additional observations from a re-analysis of the deposited data

Results flagged for a closer look

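In mutant replicates 1 to 10, Six6 was at 5.88 on replicate 2, apart from the other 9 arrays. The gap to the next array was 0.598 of the whole range, above the limit of Dixon's test at the 95% level. The same array was the highest of these 10 for Rax, Six3, Vax1 and Vax2 too. Dixon's test was applied to both ends of the 10 genes in this set, and chance alone flags about 1 in 20 groups.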

How the results depend on the processing

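None of the 10 genes passed an adjusted p below 0.05 under any setting that kept the term for mutant replicates 1 to 10, including each of 25 arrays left out in turn. With genotype as the only term 6 genes passed, and 6 with genotype and the replicate block, a setting added after the data were seen. The number of clusters called was 7, and it was 4825 with genotype only, 6 in mutant replicates 11 to 13 and wild type only, 1 after a repeated quantile normalization, 12 with arrays centred on their medians, 4 without dim clusters, 31 with array weights, 0 with the replicate block and the term for mutant replicates 1 to 10, 3637 with genotype only and the replicate block, and 0 to 26 with single arrays left out (0 without mutant replicate 13, 26 without wild-type replicate 10). Under the replicate block with the term, Six6 stood at 0.13, Hmx2 at 0.083, Six3 at -0.56 and Vax1 at -0.03, 8 of the 10 genes stood lower, 0 had an unadjusted p below 0.05 (4 without the block), and Gal had an adjusted p of 0.259. The settings for Gal were added after the data were seen. Under the replicate block with the term, the difference comes only from mutant replicates 11 and 12 against wild-type replicates 11 and 12. Mutant replicates 1 to 10 have their own term, and mutant replicate 13 has no wild-type array of its number. Wild-type replicate 12 was the lowest wild-type array for Six3, Six6 and Vax1. Arrays of the same number share no known source. With single arrays left out, Hmx2 ran from -0.129 to 0.063 and Hmx3 from -0.165 to 0.0323, so their sign is not settled. Rax (-1.61 to -1.04), Six3 (-1.27 to -0.95), Vax1 (-1.13 to -0.61) and Fezf1 (-1.34 to -0.68) kept theirs. The exact test gave 4 genes, and 2 to 7 with single arrays left out (2 without mutant replicate 12 or 13 or wild-type replicate 1, 2, 3, 4 or 6, and 7 without wild-type replicate 10). Correlated pairs in wild type numbered 3, and 0 by Spearman's rho, and 1 to 7 with single arrays left out. In the mutants there were 3, and 1 by Spearman's rho, and 1 to 4 with single arrays left out. Averaging clusters per gene changed nothing, since each gene has 1. The filter on dim clusters removed Vax2, Hmx2 and Hmx3.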
